A study of Rattus norvegicus with 46 samples.

Results

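The 8 genes described here belong to the ADAMTS family of secreted metalloproteinases and were followed through injury of the rat rotator cuff: Adamts1, Adamts2, Adamts3, Adamts4, Adamts5, Adamts12, Adamts14 and Adamts15. They were taken by symbol, 8 of 23747 symbols in the authors' deposited gene tables, and their levels came from their transcripts in the deposited count table. Rats underwent tenotomy of the supraspinatus tendon, and the sac between this tendon and the acromion, the subacromial bursa, was either kept or taken out (bursectomy). Poly(A) RNA of tendon and of bursa was sequenced 3 or 14 days later. Unoperated rats gave control bursa and control tendon (5 libraries each). Injured shoulders gave 6 groups of 6 libraries: bursa at day 3, bursa at day 14, and at each day tendon whose bursa was intact and tendon whose bursa was removed. Every injured group thus carried the tenotomy, there was no sham operation and no uninjured tendon with the bursa removed, and the sources used here give no strain, sex or age. No label links libraries of 1 rat, so p-values measure the spread between these libraries.

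ADAMTS enzymes cut proteins of the extracellular matrix and carry thrombospondin-type repeats that bind them to it. Adamts2, Adamts3 and Adamts14 are the procollagen N-proteinases: they take the amino-terminal propeptide off fibrillar procollagens, a step that lets the collagen pack into fibrils. Adamts1, Adamts4, Adamts5 and Adamts15 cut proteoglycans of the aggrecan family, and Adamts4 and Adamts5 are the best known aggrecanases of cartilage. Adamts12 cuts cartilage oligomeric matrix protein (COMP), a glycoprotein that is abundant in tendon. Tendon is built mainly of type I collagen with small amounts of proteoglycan, and a cut tendon heals by laying down new collagen.

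The start regions of 4 members are shown to set the 2 substrate classes side by side. Adamts2 and Adamts14 of the procollagen class and Adamts1 and Adamts4 of the aggrecan class all rose in injured tendon. Each sequence is the 250 bases before the annotated start, 5′ to 3′, from RefSeq on build GRCr8, at chr10:35421780-35422029, plus strand for Adamts2, chr20:29762683-29762932, minus strand for Adamts14, chr11:38427385-38427634, minus strand for Adamts1 and chr13:86202761-86203010, plus strand for Adamts4. Capitals mark matches to a GC box (GGGCGG) or a TATA box (TATAAA), searched on both strands, and no matches overlapped.
Adamts2: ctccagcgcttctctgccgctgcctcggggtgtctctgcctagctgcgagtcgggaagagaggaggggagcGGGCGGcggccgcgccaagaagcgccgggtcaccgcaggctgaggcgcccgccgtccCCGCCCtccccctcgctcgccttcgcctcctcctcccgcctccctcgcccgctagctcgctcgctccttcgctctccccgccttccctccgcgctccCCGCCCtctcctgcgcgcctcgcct
Adamts14: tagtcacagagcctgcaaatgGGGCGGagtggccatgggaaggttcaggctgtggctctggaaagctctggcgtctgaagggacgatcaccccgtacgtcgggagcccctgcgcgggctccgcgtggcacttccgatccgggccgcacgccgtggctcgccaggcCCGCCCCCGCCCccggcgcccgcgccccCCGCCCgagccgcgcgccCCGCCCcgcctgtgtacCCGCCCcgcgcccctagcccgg
Adamts1: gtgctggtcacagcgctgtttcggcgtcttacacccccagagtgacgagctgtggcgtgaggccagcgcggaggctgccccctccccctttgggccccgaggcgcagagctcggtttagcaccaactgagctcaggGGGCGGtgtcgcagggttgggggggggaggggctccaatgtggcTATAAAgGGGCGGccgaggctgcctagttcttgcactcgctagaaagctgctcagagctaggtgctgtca
Adamts4: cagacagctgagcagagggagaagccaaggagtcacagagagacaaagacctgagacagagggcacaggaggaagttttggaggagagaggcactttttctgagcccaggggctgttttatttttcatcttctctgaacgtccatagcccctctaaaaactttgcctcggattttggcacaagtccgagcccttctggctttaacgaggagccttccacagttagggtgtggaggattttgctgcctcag
The table held a start region for 6 of the 8 members. G and C made up 75.6% of the bases before Adamts2, 77.6% before Adamts3 and 76.0% before Adamts14, against a median of 51.2% over 33469 start regions. They made up 63.6% before Adamts12, 65.2% before Adamts1 and 51.2% before Adamts4. All 3 procollagen members lay above at least 96.9% of start regions in this respect, and Adamts4 lay above 48.8% of them. GC boxes numbered 6 before Adamts14, 3 before Adamts2, 2 before Adamts3 and 2 before Adamts1, and at least 1 occurred in 30.5% of all start regions. A TATA box was found before Adamts1 alone of the 6, and 12.9% of start regions held one. The AP-1 letters TGANTCA (in 6.34% of start regions) and the RUNX letters TGTGGT (in 14.5%) were in none of the 6 windows.

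Totals ran from 12.4 to 69.9 M estimated counts per library, and every member had counts in all 46. Adamts3 had the fewest counts, with 2 to 142 counts per library and a median of 39, so its values are the least precise. Levels below are CPM (counts scaled to a common library size of 1e6), and changes are log2 fold changes ± standard error from an edgeR quasi-likelihood fit, with p adjusted over all features tested. A gene rose or fell where that adjusted p was under 0.05. Levels of different genes are not compared, since transcript lengths were not used. Control tendon carried skeletal muscle RNA, with 8 measured muscle markers summing to 54615 to 81444 CPM, against 4341 to 11381 and 3034 to 12444 in tendons with the bursa intact at days 3 and 14. With the bursa removed they summed to 4264 to 37088 at day 3 and 6334 to 28061 at day 14. All 8 muscle markers were lower in each injured tendon group than in control. Mitochondrial transcripts made up 24.7% to 36.5% of counts in control tendon. With the bursa intact they made up 9.43% to 15.6% at day 3 and 7.22% to 12.1% at day 14. With the bursa removed they made up 11.7% to 25.4% at day 3 and 7.73% to 15.7% at day 14. Macrophage markers (7) summed to 259 to 576 CPM in control tendon, 1143 to 1391 at day 3 with the bursa intact and 848 to 1373 with it removed. At day 14 they summed to 695 to 736 CPM with the bursa intact and 657 to 741 CPM with it removed. Other sets differed between control, day 3 and day 14 tendons with the bursa intact. Fibroblast markers (6, Col1a1 and Col3a1 among them) had median sums of 13714, 57499 and 89286 CPM in that order. Tendon markers (7) had 6872, 2366 and 7523 CPM, and cartilage markers (5 measured) had 104, 110 and 787 CPM. Tendon markers marked the tissue as labelled: all 7 were lower in control bursa than in control tendon. Control bursa 4 held the most of them, summing to 2560 CPM against a median of 258 CPM over the control bursae. Of 5 synovial lining markers 4 were also lower in control bursa, while all 6 measured adipocyte markers were higher there. Control bursae 1 and 2 stood apart from the other 3: mitochondrial transcripts made up 48.9% and 53.5% of their counts, against 13.3% to 17%. Some results that rest on control bursae are therefore also given without these 2 libraries, a choice made after the data were seen. Where no such value is given, the 2 libraries are included. Of the member values fitted again without them, 34 kept direction and call, 3 gained the call, 1 lost it and 2 changed sign. A value that kept its call could still change in size. In bulk tissue, fewer cells of a type and less RNA per cell cannot be told apart, and the part of these differences in tissue content in the results below was not tested.

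**Figure D1:**
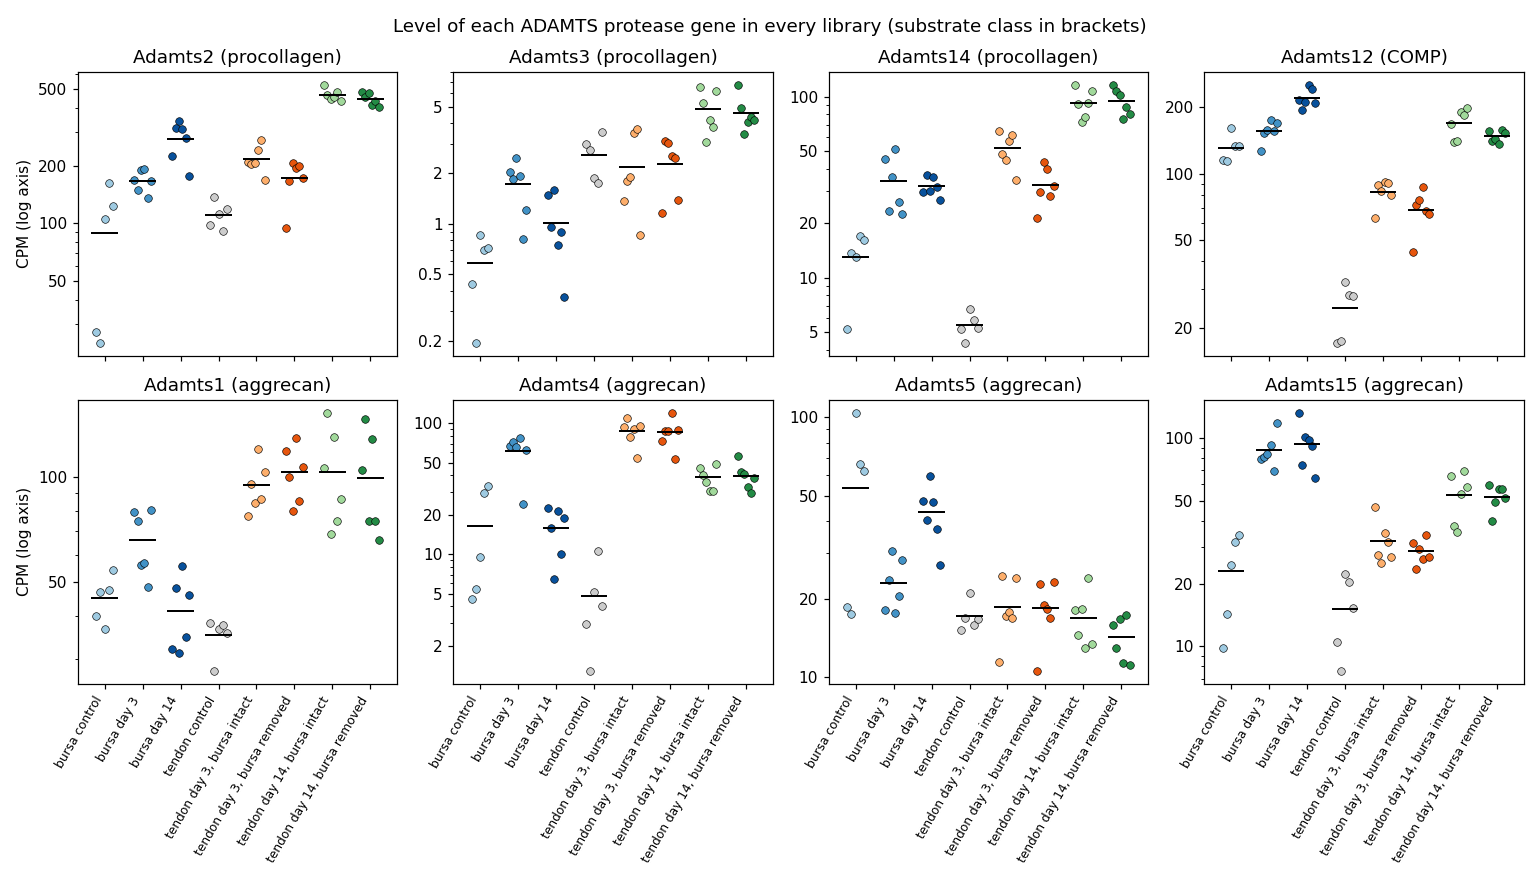
Level of each member in every library, in CPM on a log axis, by group; points are libraries and bars are group means. Adamts14 runs from 4.37 to 6.71 CPM in control tendon and from 72.6 to 117 CPM in all day 14 tendons, while Adamts5 in tendon stays between 10.6 and 24.5 CPM in every group.

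In tendon, 6 of the 8 members rose by day 3 with the bursa intact and 7 by day 14, and none fell. The background was 69.4% of all features called, 34% higher and 35.5% lower at day 3, and 69.7% of all features called, 35.2% higher and 34.5% lower at day 14, so a call alone is common in this comparison. The injured and control ranges did not overlap for 6 of 8 members at each day, against 48.8% and 49.8% of all features. The median log2 fold change of the 8 members was 1.24 at day 3 and 1.94 at day 14, against -0.01 and 0.02 over all features. Adamts14 and Adamts4 moved farthest, and Adamts5 was the one member not called at either day.

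Adamts14, a procollagen N-proteinase, had 5.22, 4.37, 6.71, 5.87 and 5.26 CPM in the 5 control tendons. With the bursa intact it reached 34.9 at the lowest, 52.8 at the median and 64.5 CPM at the highest at day 3, and 72.6 at the lowest, 91.9 at the median and 116 CPM at the highest at day 14. No injured library overlapped the controls. The log2 fold change was 3.23 ± 0.20 (adjusted p = 1.1e-13) at day 3 and 4.08 ± 0.20 (adjusted p = 3.3e-15) at day 14, a 9.46-fold and 17-fold ratio of means. The further gain between the 2 days was 0.85 ± 0.16 (adjusted p = 8.4e-05).

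Adamts2 is the main procollagen N-proteinase of skin and tendon. Its control tendons had 97.95, 137, 112, 91.5 and 118 CPM. At day 3 the level was 169 at the lowest, 207 at the median and 272 CPM at the highest. At day 14 it was 436 at the lowest, 460.2 at the median and 527 CPM at the highest. The 3 groups did not overlap, and the gene rose by 0.95 ± 0.14 (adjusted p = 1.3e-06) at day 3 and by 2.06 ± 0.15 (adjusted p = 2.6e-12) at day 14. From day 3 to day 14 it rose by 1.12 ± 0.13 (adjusted p = 1.1e-07).

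Adamts3, which besides procollagen processes the lymphatic growth factor VEGF-C, had 2.996, 2.77, 1.88, 1.75 and 3.54 CPM in control tendon. With the bursa intact its day 3 libraries had 0.863 at the lowest, 1.85 at the median and 3.704 CPM at the highest and were not called against control, at -0.24 ± 0.32 (adjusted p = 0.5). Its day 14 libraries had 3.07 at the lowest, 4.69 at the median and 6.53 CPM at the highest, and the gene rose by 0.90 ± 0.31 (adjusted p = 0.012), with ranges that overlapped those of control. Against day 3 the rise was 1.15 ± 0.29 (adjusted p = 0.0018). Adamts3 was thus called only at the later day, while Adamts2 and Adamts14 were called at both. Whether the day 3 change of Adamts3 differs from theirs was not tested.

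Among aggrecan cleaving members, Adamts4 had 2.92, 1.29, 5.201, 10.7 and 4.002 CPM in control tendon. At day 3 with the bursa intact it had 54.7 at the lowest, 92.5 at the median and 109 CPM at the highest. At day 14 it had 30.4 at the lowest, 37.98 at the median and 48.8 CPM at the highest. Day 3 stood highest and day 14 between day 3 and control, with no overlap among the 3 groups. The rise was 4.18 ± 0.34 (adjusted p = 3.8e-11) at day 3, an 18.1-fold ratio of means, and 3.02 ± 0.33 (adjusted p = 8.2e-09) at day 14. Between the days Adamts4 fell by 1.17 ± 0.26 (adjusted p = 0.00065) with the bursa intact, and with it removed it fell by 1.09 ± 0.26 (adjusted p = 0.0011). No other member fell between the days in tendon, with the bursa intact or removed. With the bursa removed Adamts5 was not called, at -0.37 ± 0.18 (adjusted p = 0.094). Without removed day 3 replicate 1 it was called lower, at -0.49 ± 0.17 (adjusted p = 0.02).

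Adamts1, which cuts aggrecan and versican, had 38.1, 27.8, 36.8, 37.6 and 35.8 CPM in control tendon. It had 77.6 at the lowest, 91.2 at the median and 121 CPM at the highest at day 3 with the bursa intact and 68.7 at the lowest, 96.5 at the median and 153 CPM at the highest at day 14. All injured libraries lay above all controls, with rises of 1.41 ± 0.21 (adjusted p = 1.4e-06) and 1.54 ± 0.21 (adjusted p = 3.9e-07). Between the days no difference was called, at 0.13 ± 0.19 (adjusted p = 0.62). Day 14 libraries spread widely, and those of equal number in the intact and removed groups had similar levels, for example 153 and 147 CPM in replicate 2 and 68.7 and 74.7 CPM in replicate 3.

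Adamts15, another proteoglycan cleaving member, had 10.4, 7.64, 22.2, 20.4 and 15.2 CPM in control tendon. Its day 3 libraries had 25.2 at the lowest, 29.6 at the median and 46.5 CPM at the highest and its day 14 libraries 35.2 at the lowest, 56.05 at the median and 69.4 CPM at the highest. Neither day overlapped control, and the gene rose by 1.07 ± 0.22 (adjusted p = 0.00013) at day 3 and 1.81 ± 0.23 (adjusted p = 8.9e-08) at day 14.

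Adamts5 was called at neither day in tendon. Its control tendons had 15.2, 16.9, 21.2, 15.9 and 16.8 CPM, its day 3 tendons with the bursa intact 11.5 at the lowest, 17.5 at the median and 24.5 CPM at the highest, and its day 14 tendons 12.98 at the lowest, 16.3 at the median and 24.2 CPM at the highest. The ranges overlapped throughout. Log2 fold changes were 0.10 ± 0.19 (adjusted p = 0.67) at day 3 and -0.04 ± 0.19 (adjusted p = 0.87) at day 14. In the reference annotation Adamts5 is the gene next to Adamts1 on chromosome 11, with 0 annotated genes between them, and the day 3 change of Adamts1 was 1.41 ± 0.21.

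Adamts12, the COMP cleaving member, had 17.1, 17.4, 32.2, 28.1 and 27.9 CPM in control tendon. It had 62.9 at the lowest, 86.03 at the median and 91.8 CPM at the highest at day 3 and 139 at the lowest, 176 at the median and 198 CPM at the highest at day 14 with the bursa intact. The 3 groups did not overlap. Adamts12 rose by 1.74 ± 0.16 (adjusted p = 3e-10) at day 3 and 2.78 ± 0.17 (adjusted p = 1e-13) at day 14, and by 1.04 ± 0.15 (adjusted p = 1.2e-06) between the days. Over the 29 tendon libraries the log2 CPM of Adamts12 and Adamts14 had a Pearson r of 0.96, given as a description, since these libraries share the group differences and muscle content described above.

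**Figure D2:**
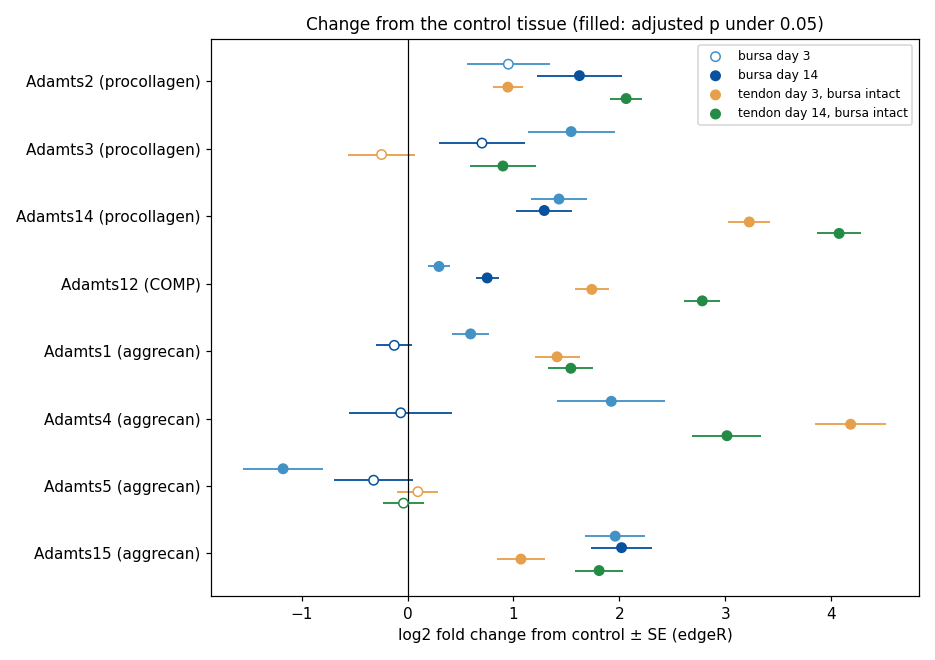
Log2 fold change from the control of the same tissue (horizontal axis, ± SE, edgeR) for each member in bursa and in tendon with the bursa intact, at days 3 and 14; filled points have an adjusted p under 0.05. In tendon the Adamts14 points sit at 3.23 and 4.08 and the Adamts4 points at 4.18 and 3.02, whereas in bursa the Adamts4 point returns from 1.92 to -0.06.

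The bursa itself, lying over the cut tendon, was compared with bursae of unoperated rats. At day 3, 6 of the 8 members rose and 1 fell, with 49.9% of all features called, 23.8% higher and 26.1% lower. At day 14, 4 rose and 0 fell, with 18.7% of all features called, 10.6% higher and 8.17% lower. Ranges of injured and control bursae did not overlap for 2 of 8 members at day 3 and 4 of 8 at day 14, against 26.9% and 11.3% of all features. The median log2 fold change of the members was 1.19 at day 3 and 0.73 at day 14, and that of all features -0.06 and -0.05. Adamts15, Adamts14 and Adamts12 rose at both days, Adamts4 was called at day 3 and not at day 14, and Adamts5 fell at day 3.

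Adamts15 gave the largest rise among the members in bursa. Control bursae had 9.86, 14.3, 24.7, 31.7 and 34.3 CPM. Bursae at day 3 had 69.4 at the lowest, 82.2 at the median and 118 CPM at the highest, and at day 14 64.5 at the lowest, 94.8 at the median and 132 CPM at the highest. The lowest injured library lay above the highest control at both days. The rise was 1.96 ± 0.28 (adjusted p = 4.3e-05) at day 3 and 2.02 ± 0.28 (adjusted p = 0.0004) at day 14, with no difference called between the days, at 0.06 ± 0.26 (adjusted p = 0.89). Without control bursae 1 and 2 the rises were 1.58 ± 0.22 (adjusted p = 5.1e-05) and 1.62 ± 0.22 (adjusted p = 0.00048). The means of both injured bursa groups, 87.3 ± 16.9 and 93.6 ± 23.7 CPM, were above that of any tendon group, of which day 14 with the bursa intact was highest at 53.4 ± 14.2 CPM, and the day 14 ranges of the 2 tissues overlapped.

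Adamts4 had 4.58, 5.47, 9.53, 29.3 and 33.5 CPM in control bursae. Day 3 bursae had 24.04 at the lowest, 66.6 at the median and 77.8 CPM at the highest, where the lowest library, replicate 5, lay inside the control range. Day 14 bursae had 6.49 at the lowest, 17.5 at the median and 22.7 CPM at the highest. The gene rose by 1.92 ± 0.51 (adjusted p = 0.0054) at day 3, fell by 1.99 ± 0.48 (adjusted p = 0.0065) from day 3 to day 14, and was not called at day 14, at -0.06 ± 0.49 (adjusted p = 0.94). Without control bursae 1 and 2 the day 3 rise was 1.40 ± 0.47 (adjusted p = 0.025) and the day 14 value -0.61 ± 0.43 (adjusted p = 0.37).

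Adamts1 moved the same way in bursa on a smaller scale. It had 39.99, 46.97, 36.6, 47.4 and 54.1 CPM in control and 48.3 at the lowest, 65.7 at the median and 80.8 CPM at the highest at day 3, a rise of 0.60 ± 0.17 (adjusted p = 0.0095). By day 14 it had 31.2 at the lowest, 40.3 at the median and 55.4 CPM at the highest, and against day 3 it fell by 0.72 ± 0.16 (adjusted p = 0.0045).

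Adamts5 went down where Adamts4 went up. Control bursae had 18.7, 17.6, 104, 66.1 and 62.1 CPM, with bursae 1 and 2 far below the other 3. Day 3 bursae had 17.7 at the lowest, 22.1 at the median and 30.6 CPM at the highest and day 14 bursae 27.1 at the lowest, 43.9 at the median and 59.5 CPM at the highest. The day 3 log2 fold change was -1.18 ± 0.37 (adjusted p = 0.016). Without control bursae 1 and 2 it was -1.69 ± 0.23 (adjusted p = 4.3e-05), with no overlap left between the 3 remaining controls and day 3, and the day 14 value was -0.85 ± 0.23 (adjusted p = 0.023). Those 2 libraries held the lowest control levels of this gene, so leaving them out by itself makes both values more negative. Without control bursa 3, the highest, the day 3 value was -0.80 ± 0.35 (adjusted p = 0.07). Markers of other cell types moved in the same bursae. Of the 6 adipocyte markers tested, of 7 in the list, 5 fell at day 3, with median sums of 11992 CPM in control, 4888 at day 3 and 8566 at day 14. All 4 Schwann cell markers fell at day 3, with median sums of 1020.2, 203 and 456 CPM. All 7 macrophage markers rose at day 3, with median sums of 1033, 2049 and 1738 CPM. Fibroblast markers (6) had median sums of 9737, 47324 and 46207 CPM. Smooth muscle and pericyte markers (5) had 2475, 1410 and 1850 CPM. Mean Adamts5 was 53.8 ± 36.4, 23.2 ± 5.36 and 43.2 ± 10.99 CPM in these groups (SD, n = 5, 6 and 6), and the part of cell content in its change was not tested.

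Of the procollagen members, Adamts14 had 5.197, 13.8, 13.04, 16.98 and 16.2 CPM in control bursae, 22.7 at the lowest, 31.1 at the median and 51.2 CPM at the highest at day 3 and 27.1 at the lowest, 30.9 at the median and 37.02 CPM at the highest at day 14. Neither injured group overlapped control, and the rises were 1.43 ± 0.27 (adjusted p = 0.00039) and 1.29 ± 0.27 (adjusted p = 0.004). Adamts2 had 27.2, 23.9, 106, 163 and 124 CPM in control, again with bursae 1 and 2 lowest. It had 135 at the lowest, 168 at the median and 193 CPM at the highest at day 3, not called at 0.95 ± 0.39 (adjusted p = 0.055), and 176 at the lowest, 295 at the median and 342 CPM at the highest at day 14, a rise of 1.62 ± 0.40 (adjusted p = 0.012). DESeq2 called the day 3 difference, at 0.95 ± 0.38 (adjusted p = 0.026). So did edgeR without control bursa 4, at 1.29 ± 0.39 (adjusted p = 0.013), or without control bursa 5, at 1.10 ± 0.43 (adjusted p = 0.044). Without control bursae 1 and 2 the values were 0.40 ± 0.19 (adjusted p = 0.11) at day 3 and 1.06 ± 0.20 (adjusted p = 0.0033) at day 14, so the day 3 value moved by more than 1.5 times on the log2 scale. Adamts3 had 0.4404, 0.195, 0.853, 0.701 and 0.719 CPM in control bursae and rose at day 3, to 0.808 to 2.47 CPM, by 1.54 ± 0.41 (adjusted p = 0.0056). Its day 14 range was 0.365 to 1.602 CPM and was not called, at 0.70 ± 0.41 (adjusted p = 0.23).

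Adamts12 had 115, 114, 161, 133 and 133 CPM in control bursae, 126 at the lowest, 156 at the median and 175 CPM at the highest at day 3 and 194 at the lowest, 213 at the median and 252 CPM at the highest at day 14. The day 14 bursae lay above all controls and all day 3 bursae, with a rise of 0.75 ± 0.11 (adjusted p = 0.00045) from control and of 0.46 ± 0.10 (adjusted p = 0.0042) from day 3. The day 3 rise was 0.30 ± 0.11 (adjusted p = 0.031) and was not called without control bursae 1 and 2, at 0.18 ± 0.11 (adjusted p = 0.18).

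From day 3 to day 14 in bursa 1 member rose and 2 fell, with 24.6% of all features called, 10.8% higher and 13.8% lower. In a fit of these 2 groups alone Adamts2 and Adamts5 were called higher too, at 0.67 ± 0.15 (adjusted p = 0.0049) and 0.86 ± 0.19 (adjusted p = 0.0044), against 0.67 ± 0.37 (adjusted p = 0.21) and 0.86 ± 0.36 (adjusted p = 0.094) with control bursae in the fit. In tendon with the bursa intact 5 members rose and 1 fell over the same interval (46.6% of all features called, 23% higher and 23.6% lower), and the counts were the same with the bursa removed (48.7% of all features called, 24.1% higher and 24.6% lower).

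The 2 tissues were next compared with each other. In controls, 5 members were higher in bursa than in tendon and 1 was lower, with 55.1% of all features called, 31.4% higher and 23.7% lower. Adamts12 differed most, with 114 to 161 CPM in bursa and 17.1 to 32.2 CPM in tendon, a difference of 2.42 ± 0.15 (adjusted p = 2.4e-16). Adamts3 was the member that was lower in bursa, at -2.06 ± 0.39 (adjusted p = 2.5e-05), and its ranges did not overlap. Higher in bursa were Adamts5, at 1.65 ± 0.30 (adjusted p = 1.5e-05), Adamts4, at 1.81 ± 0.44 (adjusted p = 0.00054), and Adamts14, at 1.26 ± 0.24 (adjusted p = 2.8e-05). The call for Adamts15, at 0.61 ± 0.26 (adjusted p = 0.043), was lost with RLE scaling at 0.58 ± 0.26 (adjusted p = 0.055), and was 0.93 ± 0.25 (adjusted p = 0.0017) without control bursae 1 and 2. Adamts2 and Adamts1 were not called, at -0.32 ± 0.28 (adjusted p = 0.34) and 0.35 ± 0.21 (adjusted p = 0.15), and Adamts2 changed sign without those 2 libraries, to 0.17 ± 0.18 (adjusted p = 0.45). Without control bursa 4 alone it was called lower in bursa, at -0.69 ± 0.28 (adjusted p = 0.032). That library had tendon markers summing to 2560 CPM, against 62.1 to 299 CPM in the other control bursae.

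The responses to injury were compared as a difference of differences: bursa minus its control, less tendon with the bursa intact minus its control. At day 3 this was called for 6 members, 1 higher and 5 lower in bursa, with 27.1% of all features called, 11% higher and 16.1% lower. At day 14 it was called for 4, all lower in bursa, with 38.5% of all features called, 17.4% higher and 21.1% lower. Adamts4 had the largest difference at both days, -2.31 ± 0.56 (adjusted p = 0.002) and -3.09 ± 0.57 (adjusted p = 4.9e-05), followed by Adamts14 at -1.86 ± 0.31 (adjusted p = 2.4e-05) and -2.80 ± 0.32 (adjusted p = 1e-08). Adamts12, at -1.50 ± 0.20 (adjusted p = 4.3e-07) and -2.04 ± 0.20 (adjusted p = 7.1e-10), and Adamts1, at -0.88 ± 0.28 (adjusted p = 0.017) and -1.68 ± 0.28 (adjusted p = 1.3e-05), were called in the same direction at both days. Adamts3 was called in favour of bursa at day 3, at 1.72 ± 0.51 (adjusted p = 0.0098), and Adamts5 in favour of tendon, at -1.34 ± 0.40 (adjusted p = 0.012). The day 3 call was lost for Adamts5 without control bursa 3, at -0.90 ± 0.37 (adjusted p = 0.077), and in a fit of only the 4 groups compared, at -1.22 ± 0.48 (adjusted p = 0.082). For Adamts1 it was lost without control bursa 5, at -0.75 ± 0.29 (adjusted p = 0.056). Adamts2 and Adamts15 were not called at either day, at -0.05 ± 0.38 (adjusted p = 0.94) and 0.83 ± 0.35 (adjusted p = 0.068) for day 3. Without control bursae 1 and 2, Adamts2 and Adamts5 were called at day 14 as well, at -0.95 ± 0.22 (adjusted p = 0.00061) and -0.76 ± 0.30 (adjusted p = 0.037).

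The question of the bursectomy was whether the tendon responds otherwise when the bursa is gone. For the members, edgeR called 0 of 8 at either day, and 0 of 14817 features in all (0% at day 3 and 0% at day 14). Unadjusted p was under 0.05 for 1211 features at day 3 and 139 at day 14, and DESeq2 called 5 and 1 features, none of them a member. With the bursa removed 6 members rose at day 3 (66.7% of all features called, 32.2% higher and 34.5% lower) and 7 at day 14 (68.8% of all features called, 34.6% higher and 34.2% lower), each against the same 5 controls.

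Adamts14 at day 3 had the lowest p of the members. Intact tendons had 34.9 at the lowest, 52.8 at the median and 64.5 CPM at the highest, removed tendons 21.5 at the lowest, 31.01 at the median and 43.5 CPM at the highest. Of the removed libraries 4 of 6 lay below the lowest intact one, and the ranges overlapped. The log2 fold change was -0.67 ± 0.16 (adjusted p = 0.38), with an unadjusted p of 0.00028, and -0.67 ± 0.17 (adjusted p = 0.091) by DESeq2. In the authors' deposited table for the same libraries it is -0.66 ± 0.17 with an adjusted p of 0.0205, among 82 of 7928 genes (1.03%) that pass there. The deposited day 14 table of the authors has 2 of 18480 genes (0.0108%) past that threshold. At day 14 the 2 groups had 72.6 to 116 and 75.1 to 117 CPM, and the value was 0.03 ± 0.16 (adjusted p = 1.0). Against control, Adamts14 rose by 2.56 ± 0.20 at day 3 with the bursa removed and by 3.23 ± 0.20 with it intact, comparisons that share the controls. The rise from day 3 to day 14 was 1.55 ± 0.16 with the bursa removed and 0.85 ± 0.16 with it intact.

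Adamts2 at day 3 gave -0.33 ± 0.13 (adjusted p = 0.6) and Adamts12 -0.27 ± 0.14 (adjusted p = 0.6), both lower with removal and neither called. Removed replicate 1 had the lowest day 3 level of Adamts2 (94.1 CPM), of Adamts14 (21.5 CPM), of Adamts12 (43.9 CPM) and of Adamts5 (10.6 CPM) in its group. This library also stood apart in content: its muscle markers summed to 37088 CPM, against 4264 to 11874 CPM in the other 5, and mitochondrial transcripts made up 25.4% of its counts, against 11.7% to 15.5%. The part of this in the values was not tested. Without this library the day 3 value of Adamts14 was -0.58 ± 0.16 (adjusted p = 1). As each of the 12 libraries was left out in turn, this value ran from -0.77 to -0.58, with an adjusted p of at least 0.11. The aggrecan cleaving members were closer to 0 at day 3, from -0.17 ± 0.20 for Adamts15 to 0.13 ± 0.19 for Adamts1. Between libraries of equal number at day 3, Adamts14 and Adamts12 were lower with removal in 6 of 6, Adamts2 in 5 and the other members in 2 to 4. These numbers were not taken as pairs at that day. At day 14 the member farthest from 0 was Adamts5, with 12.98 to 24.2 CPM intact and 11.1 to 17.4 CPM removed, at -0.25 ± 0.18 (adjusted p = 1.0). In the pairs of equal number at day 14 it was lower with removal in 6 of 6, by a mean log2 ratio of -0.23 ± 0.13 (SD, range -0.47 to -0.13). With replicate number as a block over every tendon group its value was -0.25 ± 0.18 (adjusted p = 1). With the pairs as a block, in a fit of only the 2 day 14 groups, it was -0.23 ± 0.07 (adjusted p = 0.92). It was called in neither fit. These standard errors leave room for differences of the size shown, so the values do not show that the groups are alike.

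**Figure D3:**
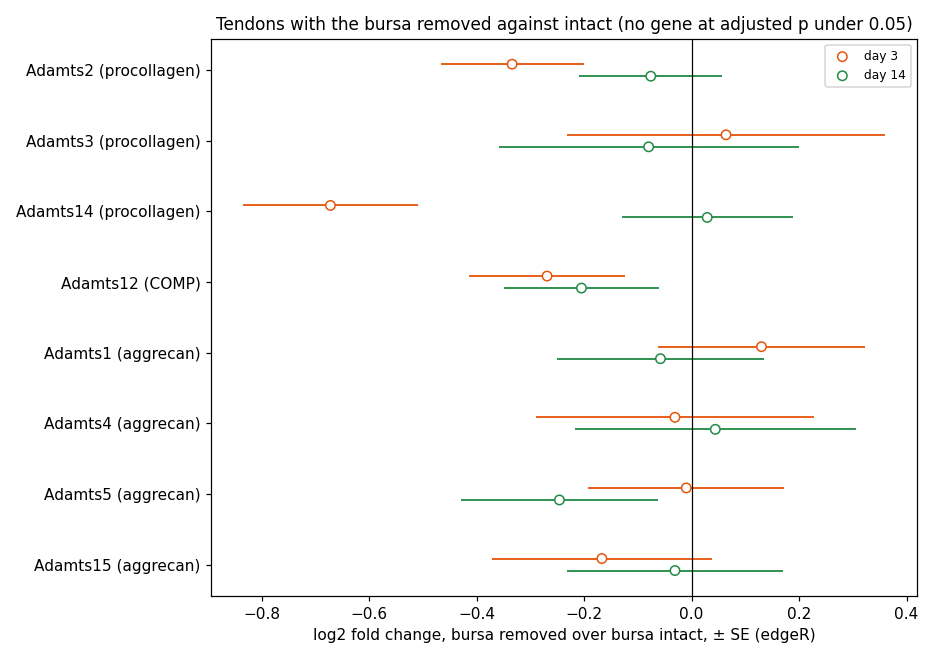
Log2 fold change of tendons with the bursa removed over tendons with the bursa intact (horizontal axis, ± SE, edgeR) at day 3 and day 14; open points are not called. Adamts14 at day 3 lies farthest from 0, at -0.67, and at 0.03 at day 14.

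The balance of the 2 substrate classes was followed per library as the mean log2 CPM of Adamts2, Adamts3 and Adamts14 minus that of Adamts1, Adamts4, Adamts5 and Adamts15. Its 0 has no meaning, because gene lengths are not in it, but shifts between groups can be read, and it is given without a test. In tendon it was -0.22 ± 0.56 in control (SD, n = 5, range -0.93 to 0.51), -0.72 ± 0.49 at day 3 with the bursa intact (n = 6, -1.49 to -0.004) and 0.47 ± 0.13 at day 14 (n = 6, 0.33 to 0.65). With the bursa removed it was -0.998 ± 0.38 at day 3 and 0.51 ± 0.10 at day 14 (n = 6 each). All 12 day 14 tendons lay above all 12 day 3 tendons, and the control range overlapped both. Relative to day 3, day 14 tendons thus had more procollagen N-proteinase RNA per aggrecan cleaving RNA. In bursa the balance was -1.71 ± 0.15 in control, -1.31 ± 0.37 at day 3 and -0.92 ± 0.39 at day 14, with overlapping ranges between days. The single genes behind the shift in tendon were Adamts4, which fell between the days, and the 3 procollagen members, which rose, while Adamts15 of the aggrecan class rose too. Adamts14 over Adamts4 alone, as a log2 ratio, went from -0.75 ± 0.56 (SD, n = 6) at day 3 to 1.27 ± 0.20 at day 14 with the bursa intact. With the bursa removed it went from -1.38 ± 0.34 to 1.26 ± 0.20, and in bursa from -0.83 ± 0.64 to 1.11 ± 0.70.

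**Figure D4:**
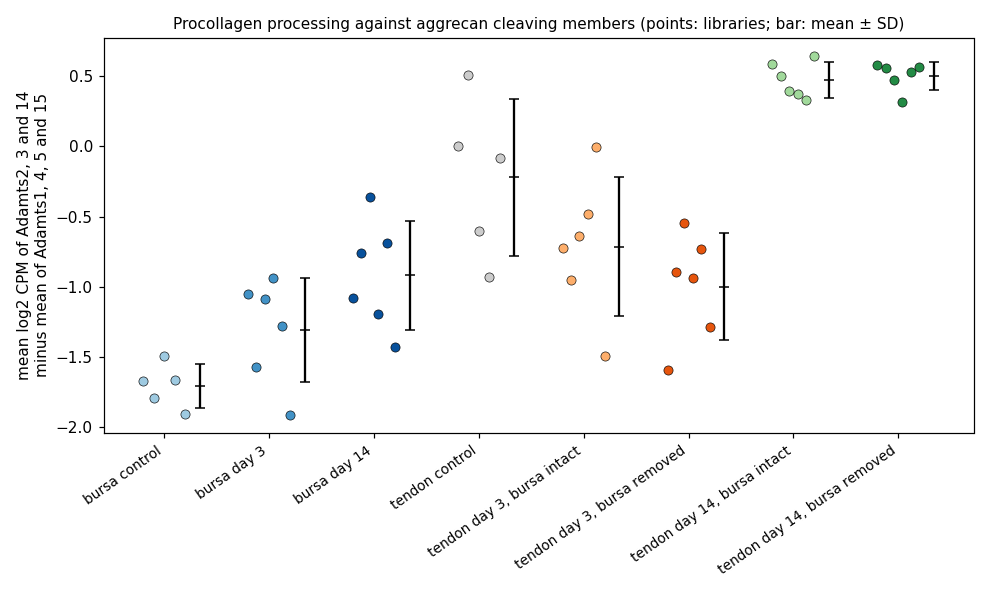
Mean log2 CPM of the procollagen members minus that of the aggrecan cleaving members (vertical axis), by group; points are libraries and bars are the mean ± SD. Day 14 tendons lie between 0.31 and 0.65, above all day 3 tendons, and bursae go from a mean of -1.71 in control to -0.92 at day 14.

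Most genes for the substrates of the procollagen members rose as well. Of 8 tested genes for fibrillar procollagens and for partners in their processing, 7 rose and 1 fell at day 3 and 6 rose and 1 fell at day 14 in tendon with the bursa intact, against 34% and 35.2% of all features higher. Their median was 1.87 and 2.75, against -0.01 and 0.02 for all features. Col5a1, a chain of the collagen that limits fibril width, rose by 4.05 ± 0.23 (adjusted p = 4.1e-14) at day 14 (4654 ± 927 CPM against 278 ± 53.9 in control). Col3a1, the collagen of early scar, rose by 3.28 ± 0.20 (adjusted p = 7.3e-14). Col2a1, the collagen of cartilage, was the gene that was lower, at -3.40 ± 1.17 (adjusted p = 0.012), with 148.9 ± 181 CPM in the controls, so it varied widely there. In bursa 6 rose and 0 fell of 7 at day 3 and 6 rose and 0 fell at day 14, against 23.8% and 10.6% of all features higher. Col1a1, the main chain of tendon collagen, rose there by 3.73 ± 0.62 (adjusted p = 0.00014) at day 3. Control bursae 1 and 2, low in Adamts2, were low in these genes too, which summed to 1471 and 1171 CPM against 8875 to 13732 CPM in the other 3.

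Proteoglycan substrates did not move in 1 direction. Of 7 tested in tendon with the bursa intact, 3 rose and 2 fell at day 3 and 2 rose and 2 fell at day 14 (69.4% and 69.7% of all features called), with medians of -0.01 and -0.05. Acan, which encodes aggrecan, rose by 1.32 ± 0.41 (adjusted p = 0.0056) at day 3 and by 3.92 ± 0.45 (adjusted p = 2.6e-08) at day 14 (692 ± 154 CPM against 45.5 ± 28.7 in control). Fmod, fibromodulin of mature tendon, fell by 2.48 ± 0.23 (adjusted p = 3.4e-10) at day 3 and was higher again at day 14 than at day 3, by 2.31 ± 0.22 (adjusted p = 3.1e-09). Dcn (decorin) fell by 1.18 ± 0.22 (adjusted p = 2.5e-05) at day 3, and Bgn (biglycan) rose at day 14 by 1.56 ± 0.15 (adjusted p = 1.2e-09). In bursa Vcan, which encodes versican, rose at day 3 by 2.05 ± 0.63 (adjusted p = 0.013).

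The inhibitors changed in opposite directions over time. Timp3 is the tissue inhibitor that acts best on aggrecan cleaving ADAMTS enzymes. In tendon with the bursa intact it had 63.5 ± 11.8 CPM at day 3 and 404 ± 87.4 CPM at day 14 (SD, n = 6 each), a rise of 2.67 ± 0.17 (adjusted p = 2.4e-12). Timp2 rose over the same days by 2.23 ± 0.13 (adjusted p = 3.2e-13), whereas Timp1 rose by 3.04 ± 0.21 (adjusted p = 7e-13) at day 3 and fell by 1.12 ± 0.18 (adjusted p = 8.7e-06) from day 3 to day 14. Timp4 fell by 3.78 ± 0.40 (adjusted p = 5.4e-09) at day 3. A2m, alpha-2-macroglobulin, which traps proteinases, had 0 counts in all 10 control libraries of both tissues and 2.86 to 9.30 CPM in day 3 tendons with the bursa intact. Set against a floor of 3 counts over the control group, its mean was at least 147-fold higher there and at least 155-fold higher in day 3 bursae. Of 7 genes in the list, 3 rose and 3 fell at day 3 in tendon, and 3 rose and 3 fell in bursa, against 34% of all features higher and 35.5% lower in tendon, and 23.8% and 26.1% in bursa. Timp3 rose between the days in bursa as well, by 1.33 ± 0.21 (adjusted p = 0.00029).

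ADAMTS enzymes are made as proenzymes that furin-type convertases cut. Of 6 genes for convertases and for cell surface or matrix partners, 4 rose and 1 fell at day 3 in tendon with the bursa intact, where 69.4% of all features were called and 34% were higher. Furin rose by 1.08 ± 0.10 (adjusted p = 1e-10) and Pcsk5 by 1.35 ± 0.25 (adjusted p = 3.8e-05), while Pcsk6 fell by 1.09 ± 0.12 (adjusted p = 1.5e-08). In day 3 bursae Pcsk5 rose by 1.91 ± 0.31 (adjusted p = 0.00012) and Pcsk6 fell by 1.73 ± 0.21 (adjusted p = 1e-05), and in the list 2 rose and 1 fell, a share near the 49.9% of all features called there. Fn1, fibronectin, rose by 1.89 ± 0.23 (adjusted p = 5.4e-08) in day 14 tendon. The day 3 change of Furin differed between bursa and tendon, at -0.88 ± 0.16 (adjusted p = 7.4e-05).

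Among the other ADAMTS genes, 5 rose and 2 fell of 9 in tendon at day 3 with the bursa intact and 7 rose and 1 fell at day 14, where 69.4% and 69.7% of all features were called. The day 3 count is near that share. Their median log2 fold change was 0.46 at day 3 and 1.37 at day 14, against -0.01 and 0.02 over all features. Adamts7, the closest relative of Adamts12 and also a COMP cleaving enzyme, had the largest rise, 3.94 ± 0.15 (adjusted p = 1.5e-17) at day 14 (58.2 ± 4.32 CPM against 3.76 ± 0.9503 in control). In bursa 5 rose and 0 fell of 10 at day 3 (23.8% of all features higher), led by Adamts17 at 4.44 ± 0.37 (adjusted p = 2.2e-07) (23.9 ± 5.204 CPM against 1.08 ± 0.748 in control). Adamts16 rose from day 3 to day 14 in bursa, by 1.99 ± 0.43 (adjusted p = 0.0031), and in tendon, by 2.37 ± 0.35 (adjusted p = 3e-06). Adamts8 fell by 2.26 ± 0.32 (adjusted p = 5.5e-07) in tendon with the bursa removed at day 3.

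The order of group means showed where each member was highest. Adamts2, Adamts3 and Adamts14 were highest in day 14 tendons, where intact and removed groups overlapped. For Adamts2 and Adamts14 no library of the next group reached those levels. Adamts4 was highest in day 3 tendons, then in day 3 bursae, and these neighbours overlapped. Adamts5, by contrast, was highest in control bursae and lower in every tendon group, though each neighbouring pair of groups overlapped. Adamts12 and Adamts15 were highest in day 14 bursae. There Adamts12 overlapped day 14 tendons with the bursa intact, and Adamts15 overlapped day 3 bursae.

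For each member the 3 genes with the most similar pattern were listed by Pearson r of log2 CPM over all 46 libraries, among 13002 named genes with a mean of at least 1 CPM. The libraries share tissue and injury differences, so r is a description. Adamts2 was most like Fstl1 (0.98), Col6a1 (0.97) and Col6a2 (0.97). Adamts14 was most like Postn (0.97), Mmp14 (0.96) and Slc38a10 (0.945). For Adamts4 they were Ccnjl (0.93), Nek6 (0.92) and Vasp (0.92), and for Adamts12 Plagl1 (0.93), Nsd1 (0.93) and Ctnnd1 (0.92). Adamts5 was nearest to Antxr2 (0.91), Adamts15 to Cpz (0.90), Adamts3 to Abhd2 (0.89) and Adamts1 to Rnf19b (0.87). Between members, r over the 29 tendon libraries was 0.89 for Adamts2 with Adamts14 and 0.82 for Adamts1 with Adamts4, while Adamts5 with any other member lay between -0.24 and 0.08. After each group's mean was taken away, r over the 46 libraries was 0.56 for Adamts2 with Adamts14, 0.37 for Adamts1 with Adamts4 and 0.74 for Adamts2 with Adamts5. Control bursae 1 and 2 were the lowest of their group in both genes of that last pair. They had 27.2 and 23.9 CPM of Adamts2 and 18.7 and 17.6 CPM of Adamts5, against group medians of 106 and 62.1 CPM. The part of these 2 libraries in that r was not tested.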

How the data were processed

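RNA of 17 bursa and 29 tendon libraries was enriched by poly-A pull-down and made into TruSeq libraries, per the labels' protocols. The authors deposited 1 table of estimated counts for 31715 transcripts without gene names (kallisto 0.44.0 after bcl2fastq 2.19, per the submitters' processing notes). They also deposited 11 gene tables with baseMean (a signal: mean normalized counts), log2 fold changes with standard errors, and p-values from DESeq2, with its Wald statistic (a score, not used). Neither its version nor a genome build or annotation is stated in the sources used here. How each sign runs in the deposited log2 fold changes was found from the counts.

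Symbols were matched to transcripts by value: counts of 1 to 8 transcripts that stand next to each other in the table were scaled and set against baseMean in all 11 tables, within 0.5 counts or 0.1%, then 1%, then 3%. This named 15361 symbols, which hold 95.7% of counts. Shifted targets that no gene has were matched in 1.07%, 0.027% and 1.57% of cases. Of the members 6 matched 1 transcript each, within 0.1%. Adamts2 and Adamts14 matched 2 each, within 1.52% and 1.14%, and those pairs were the best of 82721953 and 54972855 pairs tried without regard to position. The second best pairs came within 2.3% and 1.65%, also inside the 3% limit. These 2 matches are therefore less certain than the 6 within 0.1%. Members of the lists Col1a2, Pcolce2, Tll2, Adamtsl1, Comp and Hapln1 had no match and are not analysed here. Names are therefore inferred, and reads of overlapping genes cannot be told apart.

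Counts were summed per symbol, rounded, filtered (filterByExpr), scaled (TMM) and fitted with edgeR 4.0.16 in R 4.3.3 (glmQLFit robust, glmQLFTest), in 3 fits: 17 bursa libraries (14794 features), 29 tendon libraries (14817) and all 46 (15455). P-values were adjusted by Benjamini-Hochberg across every feature tested in a comparison, with a threshold of 0.05. CPM came from the same scaling and log2 CPM from a prior count of 2. DESeq2 1.42.0, RLE scaling, no filter, a replicate block, a fit of only the groups compared and leaving out each library were alternatives. On simulated data with 100 planted changes of each size, a 2-fold change was recovered for 62 features (bursa day 3 against control, 14641 features run), 81 (tendon day 3 intact against control, 14612) and 67 (control bursa against control tendon, 15185), and a 4-fold change for 90, 99 and 98. All other simulated features were left unchanged. In the real comparisons 49.9%, 69.4% and 55.1% of features were called, so recovery there can differ. Removed against intact tendons were not simulated. No pair of libraries within a group was alike: squared differences were at least 13.3 times counting noise. Same-numbered intact and removed tendons deviated together at day 14 (r of 0.16 to 0.47 in all 6 pairs), so equal numbers were read as pairs there, though no label states this. At day 3 r ran from 0.09 to 0.50, with 5 of 6 pairs over 0.1, and the numbers were not taken as pairs. The main tests of removed against intact tendons were unpaired at both days.

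The members and gene lists were chosen with earlier results of these data known. Named from each list are its called genes with the 3 largest changes in a comparison, and values named beside them repeat those genes. Figures were drawn with matplotlib 3.10.9.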

Additional observations from a re-analysis of the deposited data

Results flagged for a closer look

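Among 64 sets of a member's levels in 1 group, 4 held a library far from the others, where chance flags about 1 in 20. Adamts2 in removed day 3 tendons had 94.1 CPM in replicate 1 and at least 166 CPM in the others. Adamts1 in control tendon had 27.8 CPM in replicate 2 and at least 35.8 CPM elsewhere. Adamts4 in day 3 bursae had 24.0 CPM in replicate 5 and at least 62.7 CPM in the rest. Adamts5 in control tendon reached 21.2 CPM in replicate 3, with the others at 16.9 CPM or less.

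The response to injury differed between bursa and tendon with the bursa intact, by the edgeR interaction test, for 6 members at day 3. The differences in log2 fold change, bursa minus tendon, were 1.72 ± 0.51 (adjusted p = 0.0098) for Adamts3, -1.86 ± 0.31 (adjusted p = 2.4e-05) for Adamts14, -0.88 ± 0.28 (adjusted p = 0.017) for Adamts1, -2.31 ± 0.56 (adjusted p = 0.002) for Adamts4, -1.34 ± 0.40 (adjusted p = 0.012) for Adamts5 and -1.50 ± 0.20 (adjusted p = 4.3e-07) for Adamts12. At day 14 it differed for 4 members, at -2.80 ± 0.32 (adjusted p = 1e-08) for Adamts14, -1.68 ± 0.28 (adjusted p = 1.3e-05) for Adamts1, -3.09 ± 0.57 (adjusted p = 4.9e-05) for Adamts4 and -2.04 ± 0.20 (adjusted p = 7.1e-10) for Adamts12. The starting levels differed too: Adamts14, Adamts4 and Adamts12 were higher in control bursa than in control tendon. The part of muscle RNA in control tendon in these differences was not tested.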

How the results depend on the processing

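The number of members called stayed within 1.5 times its main value in all 14 comparisons under every alternative run, with 1 exception: from day 3 to day 14 in bursa it was 3, and 5 in a fit of only these 2 groups. As single libraries were left out, it ranged from 6 to 8 for bursa at day 3, 6 to 7 for removed tendons at day 14 against control and between the days, 5 to 6 for control bursa against tendon and 5 to 7 for the day 3 difference between tissues, and it did not change in the other 9. Over 2056 values of single members, 1954 kept direction and call, 25 lost the call, 18 gained it and 59 changed sign. All 59 belonged to values not called as reported. The replicate block joined libraries of equal number over all groups of a fit, controls included, and no label gives the number a meaning across groups. With this block, Adamts2 in day 3 bursae was called at 1.26 ± 0.41 (adjusted p = 0.026) and Adamts5 there was not, at -0.95 ± 0.37 (adjusted p = 0.055). Adamts15 was called with it for the day 3 difference between tissues at 0.86 ± 0.32 (adjusted p = 0.041), as it was by DESeq2 at 0.87 ± 0.34 (adjusted p = 0.044). In removed against intact tendons the block gave 0 called members at either day, and Adamts14 at day 3 was -0.66 ± 0.17 (adjusted p = 0.57), or -0.66 ± 0.20 (adjusted p = 0.39) in a fit of only those 2 groups. At day 3, 4 of 6 replicates correlated best with their own number. The call for Adamts15 in control bursa against tendon was lost in 9 of its alternatives, and Adamts3 in day 14 removed tendons was not called (adjusted p up to 0.06) without control tendon 3 or 4 or removed replicate 1.

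Signs that changed, none of them called, were Adamts5 in removed against intact tendons at day 3 (0.004 in the fit of the 2 groups, 0.006 with the block) and Adamts15 at day 14 (0.005 with both). For Adamts2 the day 3 difference between tissues was 0.069 with the block and 0.059 in the smaller fit. Without control bursae 1 and 2 the control difference of Adamts2 was 0.165 and the day 14 tissue difference of Adamts15 -0.133. With single libraries left out, ranges that crossed 0 were, at day 14 removed against intact, -0.202 to 0.089 for Adamts1, -0.039 to 0.106 for Adamts14, -0.128 to 0.055 for Adamts15, -0.220 to 0.029 for Adamts3 and -0.079 to 0.126 for Adamts4. At day 3 they were -0.090 to 0.278 for Adamts3, -0.156 to 0.071 for Adamts4 and -0.116 to 0.107 for Adamts5. Between the days Adamts1 ranged over -0.016 to 0.226 in intact and -0.202 to 0.035 in removed tendons, and in bursa Adamts14 over -0.236 to 0.007 and Adamts15 over -0.069 to 0.161. Against control, Adamts4 in day 14 bursa ranged over -0.295 to 0.365, Adamts5 there over -0.541 to 0.061 and Adamts5 in day 14 intact tendon over -0.161 to 0.049. The tissue difference of Adamts2 at day 3 ranged over -0.289 to 0.339 and that of Adamts5 at day 14 over -0.523 to 0.107. The cause of these changes was not tested. DESeq2 called 5 features at day 3 and 1 at day 14 in removed against intact tendons, where edgeR called 0. A fit of only the groups compared called 1725 features in day 14 bursa and 5593 between the controls, against 2772 and 8510. The class balance moved by less than 1 SD with RLE scaling or a prior count of 0.5. Adamts3, at a median of 39 counts, is limited most by depth.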

Other observations

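ADAMTS-like genes, which encode relatives of these enzymes without a protease domain, were also followed. Of 5 tested, 0 rose and 4 fell in tendon at day 3 with the bursa intact, and 4 rose and 0 fell from day 3 to day 14. Their median log2 fold change at day 3 was -1.23, against -0.01 for all features. Papln, papilin, fell by 1.89 ± 0.23 (adjusted p = 5e-08) at day 3 in tendon, and Adamtsl3 was lower as well, at -1.23 ± 0.16 (adjusted p = 1e-07). The share of all features called was 69.4% at day 3 and 46.6% between the days. In bursa 1 rose and 3 fell at day 3, where 49.9% of all features were called. Adamtsl2, which binds fibrillin, was the one that rose there, by 2.87 ± 0.48 (adjusted p = 0.00017), and its day 3 change differed from that of tendon by 3.02 ± 0.53 (adjusted p = 4.5e-05).

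Adamts2 and Adamts14 each matched 2 transcripts, and the share of the less abundant one was recorded. For Adamts2 it was 24.4% ± 2.57 of counts (SD, n = 6) in intact day 3 tendons and 14.9% ± 3.54 at day 14, and 32.3% ± 5.39 in day 3 and 19.2% ± 2.39 in day 14 bursae. For Adamts14 it was 0% in all 5 control tendons and 6.36% ± 2.11 at day 14 with the bursa intact, where control tendons held far fewer counts of the gene. These shares rest on estimated counts of similar transcripts and on pairs matched by value, and were not tested.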
